A study of Rattus norvegicus with 4 samples.

Results

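The genes described here are the *Nudc* family and the core of the dynein machinery it serves in rat embryonic stem cells (ESCs): *Nudc*, *Nudcd1*, *Nudcd2*, *Nudcd3*, *Pafah1b1*, *Nde1*, *Ndel1*, *Dync1h1*, *Dctn1* and *Dctn2*. They were picked by gene symbol, and all 10 symbols were found among the 34773 genes of the deposited count table. All 10 passed the filter on low counts, as did 15028 genes in all. The group was put together with the difference between *Thop1*-KO and control cells already known, so for these genes that difference is given as a description without a test.

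Poly(A)-selected RNA from 4 cultures was sequenced, 1 library each. The control was DA-5-3GFP, a wild-type rat ESC line that carries a GFP reporter driven by *Rex1*. The other 3 libraries came from *Thop1*-KO subclones #1, #2 and #3 of that line, obtained with a Cas9 and sgRNA vector, puromycin selection and colony picking, so each is 1 clone. All cells were grown on feeder cells in medium with PD0325901, CHIR99021 and LIF, according to the study's methods for rat ESCs. The series' design text calls both genotypes haploid, whereas the study's methods list DA-5-3 as the wild-type line beside a separate haploid line. The control has 1 library and is not stated to have gone through the sgRNA transfection or puromycin selection. Genotype, clonal selection and that single culture therefore cannot be told apart.

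The libraries held between 15405499 and 17936544 counts. *Thop1*, the targeted gene, stood at 110, 92.5 and 149 CPM (counts scaled to a common library size) in #1, #2 and #3 and at 370.1 in the control, so its RNA was lower but present in every subclone. No pair of libraries agreed within sampling noise. Of 7 naive ESC markers matched, none was absent. Their summed CPM was 5716 to 7047 in the subclones and 5987 in the control, inside that range. Log2 fold changes were below 0 for 3 of the 7: *Pou5f1* at -0.09, *Nanog* at -0.21 and *Klf4* at -0.33. They were above 0 for 4, among them *Sox2* at 0.83 and *Tbx3* at 0.63. *Pou5f1* stood at 3889 to 4842 CPM in the subclones and 4794 in the control, while 2 were called higher by edgeR: *Esrrb* at 286 to 330 CPM against 16.0, and *Tfcp2l1* at 231 to 279.5 against 34.5. The summed CPM of 9 fibroblast markers was 387 to 788 in the subclones, highest in #2, and 266 in the control, with *Thy1*, *Dcn* and *Lum* at 0 in all libraries. Those of 7 primitive endoderm markers were 5.01 to 7.39 against 2.89, and *Gata6* in #1 gave 3.76 of the 7.39. Of the 5 tested, 4 had a log2 fold change above 0. *Gata4* went the other way, with 3, 0 and 3 counts against 17. The summed CPM of 5 neural markers was 124 to 291 against 313, with *Pax6* at 0 in all libraries. Most of the neural sum was *Tubb3*, and the 1 neural marker called was *Nes*, lower in the subclones at 6, 13 and 3 counts against 126. The mitochondrial share of counts was 1.31% to 1.32% in the subclones and 2.04% in the control. The part of these differences in the results was not tested, and in bulk RNA fewer cells of a type and less RNA per cell cannot be told apart.

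Cytoplasmic dynein is the motor that walks along microtubules towards their minus ends, carrying cargo, positioning the nucleus and working at kinetochores and spindle poles. Its heavy chain holds the motor domain, dynactin makes it processive, and Lis1 with the scaffolds Nde1 and Ndel1 regulates how it engages the microtubule. NudC proteins carry a CS domain like that of the Hsp90 co-chaperone p23 and are known as chaperone partners that keep Lis1 and dynein subunits stable.

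Before the values, the upstream sequences of 4 genes are shown. *Nudcd3* and *Dync1h1* had the largest differences between the genotypes, and *Nudcd2* and *Dctn2* had a control value inside the range of the subclones. Each run is the 250 bases before the start of the gene in RefSeq (build GRCr8), read 5′ to 3′ on the strand of the gene, and capitals mark matches to a CCAAT box, a GC box (GGGCGG) or an ETS core (CCGGAAG) on either strand. *Nudcd3* lies on the minus strand at chr14:85272884-85273133, *Dync1h1* on the plus strand at chr6:135436228-135436477, *Nudcd2* on the plus strand at chr10:25665269-25665518 and *Dctn2* on the plus strand at chr7:64977216-64977465.
Nudcd3: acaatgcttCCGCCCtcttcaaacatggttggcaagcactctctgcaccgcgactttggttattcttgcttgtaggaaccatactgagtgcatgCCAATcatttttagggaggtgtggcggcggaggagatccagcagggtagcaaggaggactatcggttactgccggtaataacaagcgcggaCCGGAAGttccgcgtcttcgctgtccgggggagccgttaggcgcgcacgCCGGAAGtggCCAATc
Dync1h1: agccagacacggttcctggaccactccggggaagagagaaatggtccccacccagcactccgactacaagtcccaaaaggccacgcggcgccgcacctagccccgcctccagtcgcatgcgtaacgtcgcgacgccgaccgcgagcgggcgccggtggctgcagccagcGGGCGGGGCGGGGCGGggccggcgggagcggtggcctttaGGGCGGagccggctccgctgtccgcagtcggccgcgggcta
Nudcd2: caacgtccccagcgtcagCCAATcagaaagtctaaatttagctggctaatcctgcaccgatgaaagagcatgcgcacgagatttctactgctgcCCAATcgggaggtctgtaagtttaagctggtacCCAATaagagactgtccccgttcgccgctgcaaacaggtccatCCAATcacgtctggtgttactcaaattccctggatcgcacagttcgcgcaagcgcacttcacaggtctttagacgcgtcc
Dctn2: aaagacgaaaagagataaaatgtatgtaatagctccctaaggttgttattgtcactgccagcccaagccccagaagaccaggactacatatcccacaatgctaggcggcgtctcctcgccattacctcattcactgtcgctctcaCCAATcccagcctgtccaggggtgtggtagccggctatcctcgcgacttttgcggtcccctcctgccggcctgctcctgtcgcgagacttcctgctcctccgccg

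The *Nudcd3* window held 2 CCAAT boxes, 1 GC box and 2 ETS cores. The *Dync1h1* window held 4 GC boxes, 3 of them overlapping, and no CCAAT box or ETS core. *Nudcd2* had 4 CCAAT boxes and *Dctn2* had 1. Among all 33469 RefSeq promoters of the same length, 34.0% held a CCAAT box, 30.5% a GC box and 7.27% an ETS core. Neither a TATA box (TATAAA, 12.9% of promoters) nor an E box (CACGTG, 5.59%) was found in these 4 windows. *Dync1h1* had the most GC-rich of the 4, at 73.2% against a median of 51.2% over all promoters, and *Nudcd3* stood at 56.4%. The windows of *Nudcd3* and *Dync1h1* both held the GC box, as did that of *Ndel1*, and the matches are a description, not sites. The motifs were chosen after the sequences were seen. *Nde1*, *Ndel1* and *Dctn1* are also in the table, and *Nudc*, *Nudcd1* and *Pafah1b1* were not matched.

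Of the 10 genes, *Nudcd3* and *Dync1h1* had log2 fold changes of 5.07 and 3.38, and the other 8 had values between -0.85 and 0.97. With edgeR's quasi-likelihood test at an adjusted p threshold of 0.05, 2 of the 10 were called higher and 0 lower. Over all genes tested, 13.8% were called, 8.62% higher and 5.17% lower. Because these genes were chosen from this contrast, nothing is read from that count. The median log2 fold change was 0.32 over the 10 genes and 0.06 over all genes tested. The control lay below all 3 subclones for 5 of the genes, above them for 3 and inside their range for 2. Over all genes tested it lay below them for 38.1% and above them for 37.6%, so outside their range for 75.7%.

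**Figure D1:**
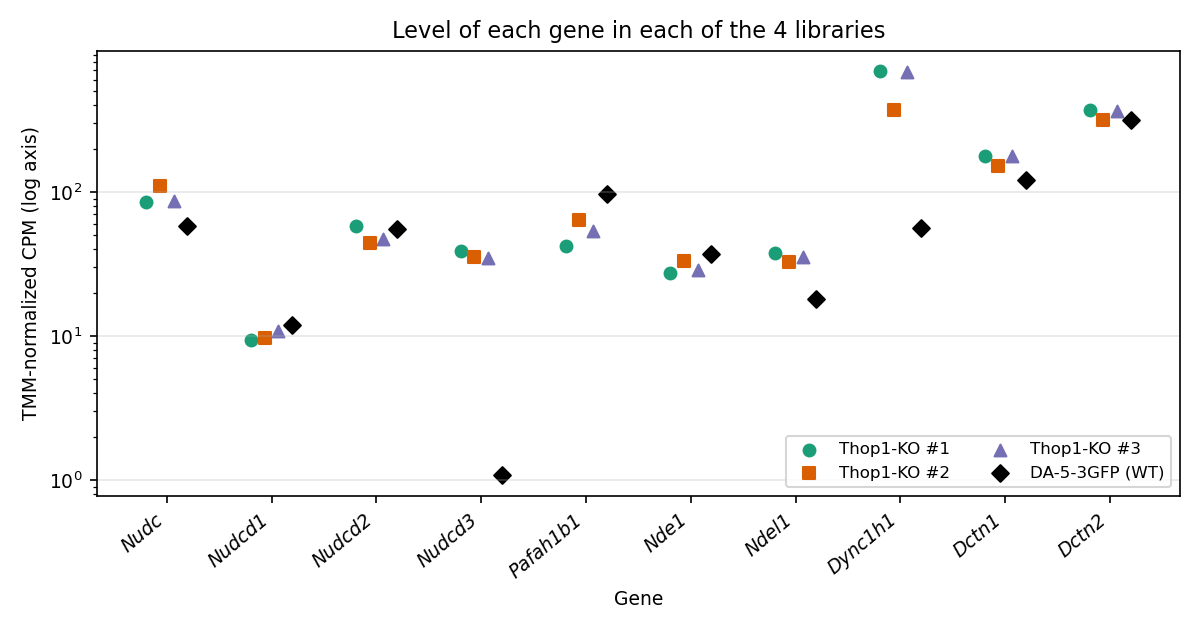
TMM-normalized CPM (y axis, log scale) of each of the 10 genes (x axis) in the 4 libraries, 1 point per library for subclones #1, #2 and #3 and for the DA-5-3GFP control. The control lies far below the subclones for *Nudcd3* (1.08 CPM against 34.8 to 39.2) and *Dync1h1* (56.0 against 369 to 693) and less far from them for the other genes, as for *Ndel1* (18.03 against 32.8 to 37.7) and *Pafah1b1* (96.2 against 42.5 to 64.4).

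*Nudcd3* (ENSRNOG00000056148, chromosome 14, 86326421 to 86333424, minus strand in the coordinates of the deposited annotation) encodes a NudC-like protein known to stabilize the dynein intermediate chain. Its counts were 657 in #1, 621 in #2 and 626 in #3, with 16 for the control, or 39.2, 35.1 and 34.8 CPM against 1.08. The subclones were close together and far from the control, with no overlap. Their mean of 36.4 ± 2.42 CPM (SD, n = 3) was 33.8 times the control, a log2 fold change of 5.07 (SE 0.42), higher than that of 97.0% of the genes tested. The 16 counts of the control carry a 95% exact Poisson interval of 9.15 to 26.0, which covers counting error only. The deposited gene model of *Nudcd3* has an exon length of 550 bases in a span of 7004, and 8.0% of the genes tested were shorter. Its counts, CPM and FPKM refer to that model only, and whether it covers the whole transcript was not tested.

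*Nudc* (ENSRNOG00000051720, chromosome 5, 151754716 to 151768123, minus strand), the founding member known for its roles in nuclear movement and mitosis, had 85.5, 111 and 86.0 CPM in the subclones and 57.9 in the control. All 3 subclones lay above the control and #2 was highest. The log2 fold change was 0.70 (SE 0.28). *Nudcd2* (ENSRNOG00000060914, chromosome 10, 25890943 to 25896432, plus strand), known to act with Hsp90 on the stability of Lis1, had 57.7, 44.3 and 47.0 CPM against 55.7. The control lay inside the range of the subclones, and the log2 fold change was -0.16 (SE 0.28). *Nudcd1* (ENSRNOG00000024929, chromosome 7, 83301941 to 83348487, minus strand), a more distant CS-domain relative, had 9.42, 9.62 and 10.8 CPM against 11.8. The control was above all subclones by a small margin, with a log2 fold change of -0.25 (SE 0.34). Within the family the log2 fold changes thus ran from -0.25 to 5.07.

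*Pafah1b1* (ENSRNOG00000002755, chromosome 10, 61456145 to 61577412, minus strand) encodes Lis1. It had 42.5, 64.4 and 53.8 CPM in the subclones and 96.2 in the control, which lay above all of them. The control was 1.80 times the mean of the subclones, with a log2 fold change of -0.85 (SE 0.29). *Ndel1* (ENSRNOG00000004139, chromosome 10, 55411901 to 55444861, minus strand), which binds both Lis1 and dynein, had 37.7, 32.8 and 35.6 CPM against 18.03. The subclones lay above the control and close to each other, at 1.96 times its value and a log2 fold change of 0.97 (SE 0.29). *Nde1* (ENSRNOG00000058007, chromosome 10, 860521 to 896938, minus strand), the paralogue of *Ndel1*, had 27.3, 33.3 and 28.6 CPM against 36.9. The control was highest, and the log2 fold change was -0.31 (SE 0.28). The pair of paralogues thus lay on opposite sides of the control, and a test of that difference was not run.

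*Dync1h1* (ENSRNOG00000006178, chromosome 6, 134958854 to 135085769, plus strand) encodes the heavy chain, the motor subunit. Its counts were 11619 in #1, 6530 in #2 and 12252 in #3, with 832 for the control, or 693, 369 and 682 CPM against 56.0. Every subclone was well above the control, and #2 was well below the other subclones. The mean of 581 ± 184 CPM (SD, n = 3) was 10.4 times the control, and the log2 fold change was 3.38 (SE 0.47), above that of 95.0% of the genes tested. With an exon length of 17600 bases it is among the longest genes tested, 9 being longer. It overlaps *LOC103692716* and *RGD1305298* on the other strand, which had at most 66 counts in any library.

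*Dctn1* (ENSRNOG00000010048, chromosome 4, 114876770 to 114896573, plus strand) encodes p150Glued, the dynactin subunit that contacts dynein and microtubules. It had 178, 152 and 178 CPM in the subclones and 121 in the control, below all of them, with a log2 fold change of 0.48 (SE 0.24). *Dctn2* (ENSRNOG00000025481, chromosome 7, 70556019 to 70572614, plus strand) encodes dynamitin, of the dynactin shoulder. It had 369, 313.9 and 364 CPM against 314.4, so the control lay only just inside the range of the subclones. The log2 fold change was 0.15 (SE 0.23). *Dctn2* overlaps *Mbd6* and *Kif5a* on the other strand, which had up to 1826 counts. Whether reads were assigned by strand is not given in the sources used here, so reads of these genes and of *Dctn2* cannot be told apart where they overlap.

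**Figure D2:**
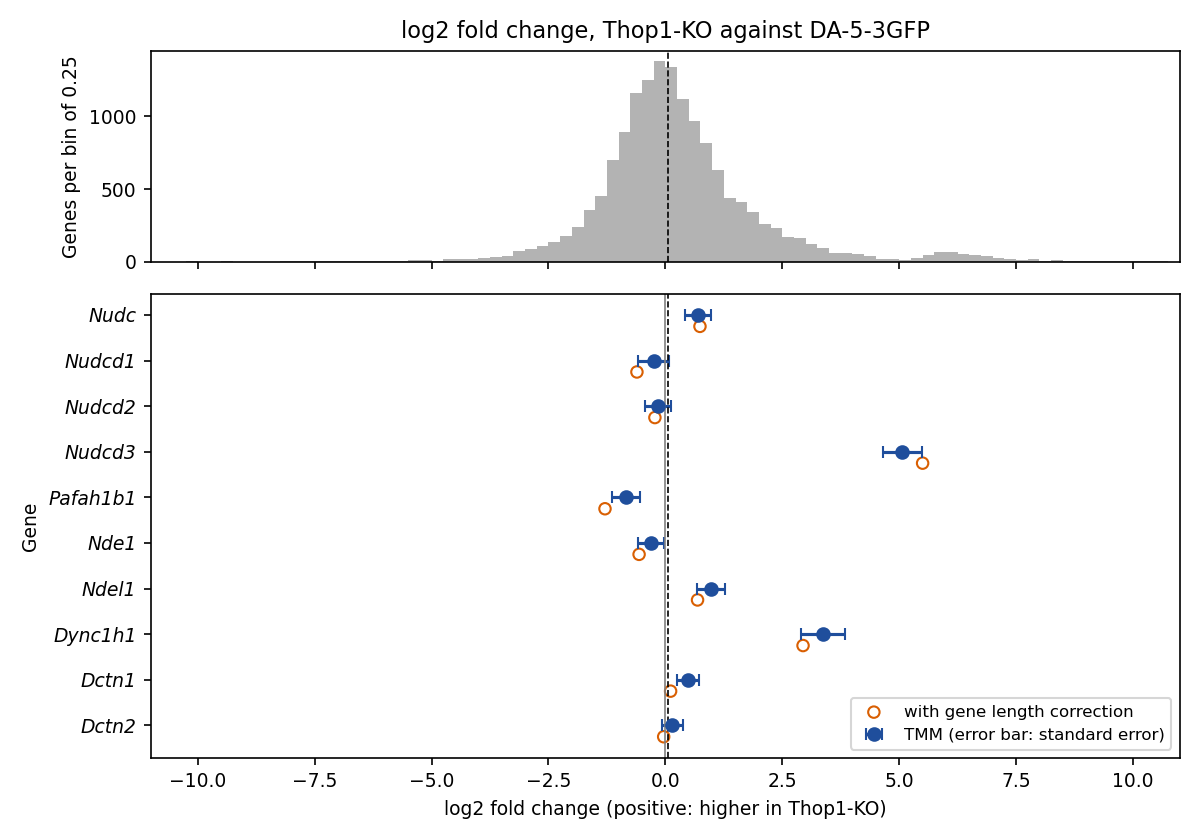
log2 fold change of *Thop1*-KO against DA-5-3GFP for each of the 10 genes with its standard error (lower panel, x axis in log2 units, positive meaning higher in *Thop1*-KO), under the distribution of all 15028 genes tested (upper panel, genes per bin). *Nudcd3* at 5.07 and *Dync1h1* at 3.38 lie in the right tail, and the other 8 genes lie between -0.85 and 0.97, around the median of all genes.

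Levels between genes were compared per length, on the deposited FPKM values. In the subclones *Dctn2* was the highest at 180 ± 15.7 FPKM (SD, n = 3), followed by *Nudc* at 70.9 ± 11.0 and *Nudcd3* at 65.2 ± 4.86, whose subclone ranges overlapped. *Dctn1* at 37.8 ± 3.38, *Dync1h1* at 32.5 ± 10.2 and *Nudcd2* at 31.2 ± 4.67 came next, each overlapping its neighbour in the order. *Ndel1* at 14.7 ± 1.07 and *Nde1* at 13.6 ± 1.44 overlapped as well. *Pafah1b1* at 7.95 ± 1.61 and *Nudcd1* at 2.62 ± 0.17 were lowest and separate. In the control the order differed for the genes with the largest differences: *Nudcd3*, in place 3 in the subclones, was in place 10 with 1.93 FPKM, and *Dync1h1*, in place 5, was in place 8 with 3.14 FPKM. *Dctn2* was first and *Nudc* was next in both, with 162 and 43.7 FPKM in the control.

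The subclones could be compared with each other by a test, since the choice of the genes did not rest on that contrast. Of 10 genes in 3 comparisons of a subclone with the mean of the other subclones, 1 was called: *Dync1h1* was lower in #2, by a log2 difference of -0.90 (SE 0.20, edgeR quasi-likelihood test with Benjamini-Hochberg adjustment over 15028 genes, adjusted p = 0.0314). In that comparison 2.48% of all genes tested were called. For #1 and #3, 0 of the 10 genes were called and 0 had an unadjusted p under 0.05 with edgeR. Over all genes 0.0399% were called for #1 and 0 for #3, with 5.4% and 0.745% under an unadjusted p of 0.05, against 17.8% for #2. *Pafah1b1* had the next largest difference, -0.48 in #1 (SE 0.33, edgeR adjusted p = 0.877). *Nudcd3* differed by 0.16 or less in size in each comparison. The median SD among the subclones was 0.14 in log2 CPM for the 10 genes and 0.26 for all genes tested. That SD depends on the level of a gene, and the sets were not matched for level. The spread among the subclones also entered the contrast from which the genes were chosen, so these medians are not independent of that choice. The call for *Dync1h1* was lost when only library size was used for scaling and when 10 counts were required in every library, which left fewer genes in the test. The comparison sets 1 library against 2 with 1 residual degree of freedom, and its number of calls over all genes ran from 37 to 1173 over the alternatives, so clone and library cannot be told apart and the call is uncertain. The summed fibroblast markers were also highest in #2, and their part in this difference was not tested.

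Gene length moved with the difference between the genotypes. The median log2 fold change was -0.47 over 2799 tested genes with an exon length under 1000 bases and 0.46 over 737 genes of 6000 to 10000 bases. *Nudcd3*, with 550 bases, lay far above the median of the short genes. *Dync1h1* lay in the group of 122 genes with at least 10000 bases, whose median was 0.33, and 4 of those exceeded it. With a loess correction for length in each library the log2 fold changes were 5.50 for *Nudcd3* and 2.94 for *Dync1h1*. *Pafah1b1*, with 6639 bases, moved from -0.85 to -1.29. *Dctn2* moved from 0.15 to -0.04, so its sign depended on this step. The median of the 10 genes went from 0.32 to 0.04 and that of all genes from 0.06 to -0.10. The share of calls that were higher over all genes went from 62.5% to 51.3%, and it was 55.6% with upper quartile scaling and 70.0% with library size only.

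**Figure D3:**
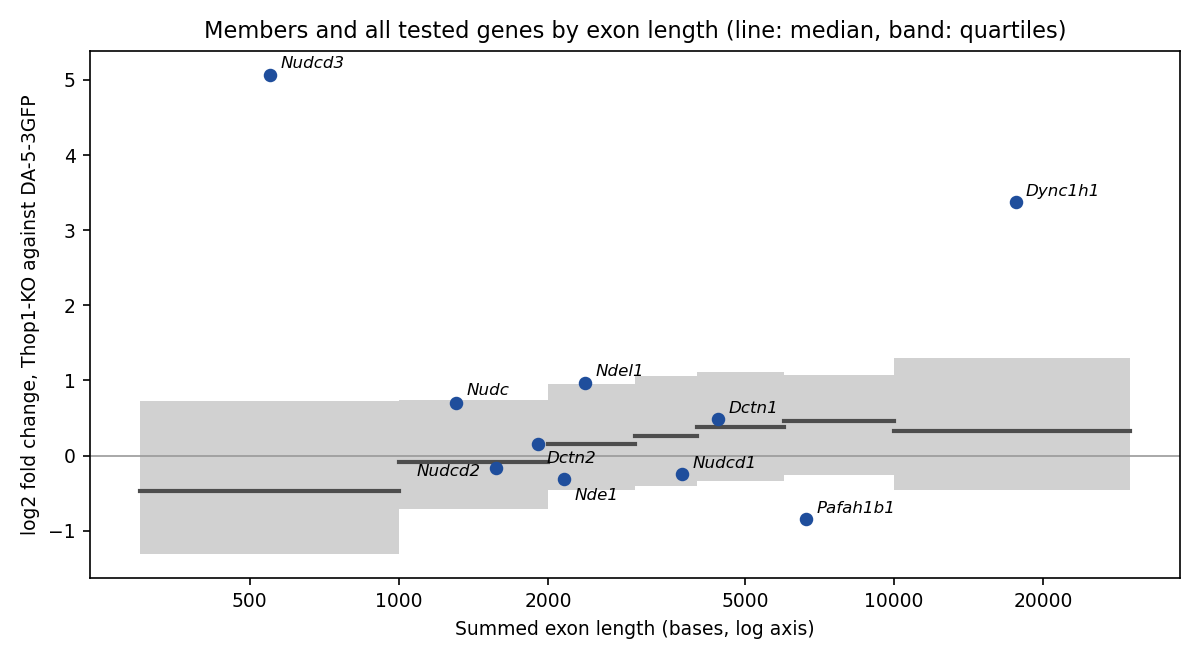
log2 fold change of *Thop1*-KO against DA-5-3GFP (y axis) by summed exon length in bases (x axis, log scale), with the 10 genes as named points, the line the median and the band the quartiles of all tested genes. The median rises from -0.47 in genes under 1000 bases to 0.46 at 6000 to 10000 bases, and *Nudcd3* and *Dync1h1* stand above the band.

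Neither gene beside *Nudcd3* was called. *Camk2b*, 28768 bases below it, had 42, 16 and 29 counts against 11, with a log2 fold change of 1.17 (SE 0.84, edgeR adjusted p = 0.359). *Ddx56*, 43383 bases above it, had 68.8, 75.2 and 66.9 CPM against 58.5, a log2 fold change of 0.26 (SE 0.25, edgeR adjusted p = 0.484). The genes beside *Dync1h1* were looked at after their values were seen. *Ppp2r5c* had 93.6, 96.7 and 91.7 CPM against 125, a log2 fold change of -0.41 (SE 0.23, edgeR adjusted p = 0.247). *Hsp90aa1*, the inducible Hsp90, had 16.9, 34.6 and 136 CPM against 111, so the subclones differed widely among themselves and the control lay within them. Of the 20 nearest tested genes, 1 was called higher (*LOC103692166*, 22901 bases below *Dctn1*) and 1 lower (*Emc2*, 924831 bases below *Nudcd1*). That was 10% beside 13.8% of all genes tested. The median log2 fold change of the 20 genes was 0.20.

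**Figure D4:**
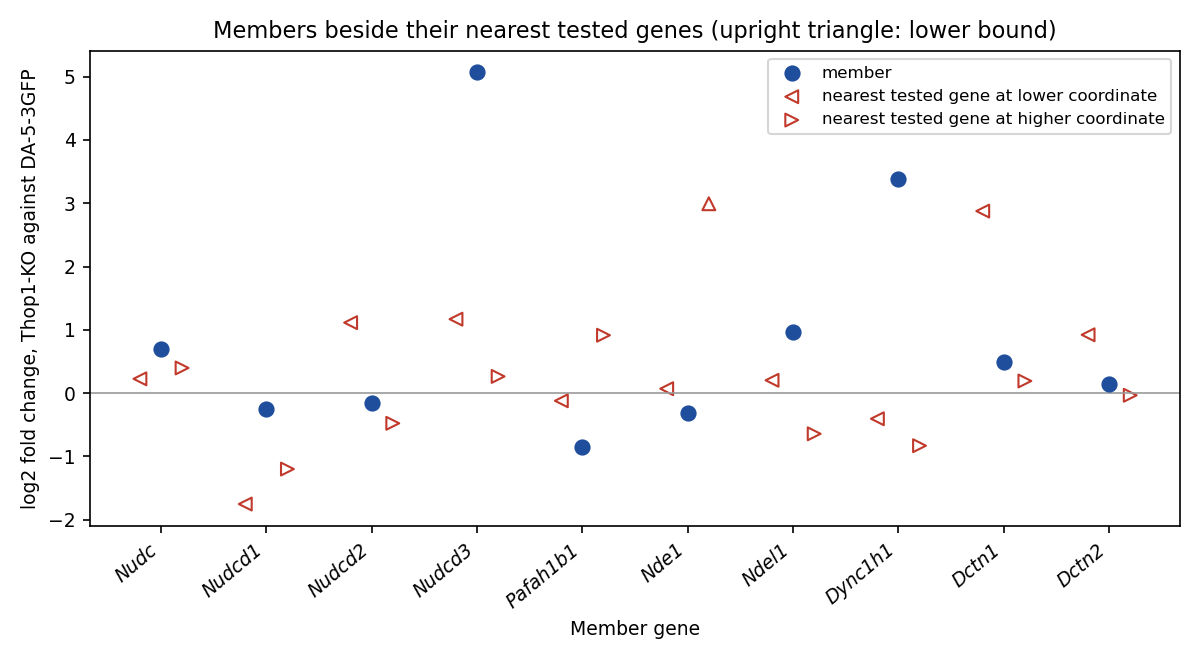
log2 fold change of *Thop1*-KO against DA-5-3GFP (y axis) of each of the 10 genes (x axis) and of the nearest tested gene on either side. Beside *Nudcd3* at 5.07 its neighbours lie at 1.17 and 0.26, and beside *Dync1h1* at 3.38 its neighbours lie at -0.41 and -0.83.

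Among the genes with the profile closest to *Nudcd3* over the 4 libraries were *Esrrb*, *Nek2*, *Usp22* and *Pi4k2a*, at Euclidean distances of 0.16, 0.26, 0.34 and 0.35 between centred log2(CPM + 1) values. Each was low in the control. *Esrrb*, a naive pluripotency factor, stood at 330, 286 and 328 CPM against 16.0, and *Pi4k2a*, with the widest spread of these 4 over the subclones, at 60.6, 43.4 and 49.0 against 2.56. *Dync1h1* had a distance of 1.02, with 88 other tested genes closer. The next of the 10 genes was *Ndel1* at 2.80, with 2192 genes closer, and *Pafah1b1* was farthest at 4.38. These distances describe 4 libraries and carry no test.

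Other genes of the dynein pathway, and those of Hsp90 and its co-chaperones, were taken from 5 lists set by function. The lists were set with earlier results of these data known, so their calls and p-values are given as a description. Of the 59 tested, 6 were called higher and 4 lower, 16.9% beside 13.8% of all genes, and their median log2 fold change was 0.02. All 4 lower calls lay in the list of Hsp90 and its co-chaperones. Without #3, 0 were called higher and 0 lower, whereas without #2 16 and 12 were. The fold changes moved little without #3, as *Dync1li1* from 1.71 to 1.66 and *Sugt1* from -1.58 to -1.59, and over all genes the calls fell from 1295 to 354 higher and from 777 to 103 lower. Of the other dynein subunits, 1 of 8 tested was called higher and 0 lower by edgeR, and the median was -0.36. DESeq2 also called 2 lower there, *Dynll1* and *Dynlt3*, both light chains. *Dync1li1*, a light intermediate chain that links the motor to adaptors, had 31.4, 28.3 and 32.7 CPM against 9.42 and rose by 1.71 on the log2 scale (SE 0.33, edgeR adjusted p = 0.0232). Of the other dynactin subunits 0 of 10 were called by edgeR, while DESeq2, which called 21.5% of all genes, called 1 higher (*Dctn4*). The largest differences there were *Dctn4*, with 12.7, 19.0 and 17.7 CPM against 6.46 and a log2 fold change of 1.35 (SE 0.41, edgeR adjusted p = 0.0714), and *Capza2* at -0.84 (SE 0.40, edgeR adjusted p = 0.19).

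Of 21 adaptors and recruiters tested, edgeR called 4 higher and 0 lower, beside 8.62% and 5.17% of all genes tested. The median of this list was 0.76. DESeq2 called 7 higher and 1 lower, beside 1987 higher and 1019 lower of 13973 genes in all. With the length correction edgeR called 1 higher and 1 lower, beside 1056 higher and 1001 lower of 15028. The lower call in both was *Spdl1*, a recruiter of dynein to kinetochores, with 5.19, 8.49 and 8.85 CPM against 18.4 and a log2 fold change of -1.29 (SE 0.40). *Zwilch*, part of the complex that brings dynein to kinetochores, had 20.6, 23.0 and 26.9 CPM against 5.85 and rose by 2.0 on the log2 scale (SE 0.37, edgeR adjusted p = 0.0217). *Bicd2*, a cargo adaptor, had 32.1, 31.9 and 27.8 CPM against 10.3 and rose by 1.57 (SE 0.32, edgeR adjusted p = 0.0281). *Gpsm2*, which anchors dynein at the cell cortex in mitosis, had 78.8, 70.3 and 79.7 CPM against 36.3 and rose by 1.07 (SE 0.27, edgeR adjusted p = 0.0446). *Bicdl2*, a relative of the BICD adaptors, had 208 counts in #1, 27 in #2 and 87 in #3 beside 0 for the control, at least 31.0-fold higher with 3 counts in the control as the floor (edgeR adjusted p = 0.0475). Without #1 that bound was 15.8-fold. The calls for *Bicd2*, *Gpsm2* and *Bicdl2* were lost with the length correction, with log2 fold changes of 1.15 for *Bicd2* and 0.77 for *Gpsm2*, while *Bicdl2* moved little, from a fitted 9.72 to 9.70. The median of this list was then 0.31.

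Of 8 further partners of Lis1 and Ndel1, 1 was called, 12.5% beside 13.8% of all genes tested. *Disc1*, a scaffold known to bind Ndel1, had 24, 20 and 16 counts against 0, at least 5.7-fold higher (edgeR adjusted p = 0.0399). The median of this list was 0.07.

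Genes of Hsp90 and its co-chaperones were the list that lay lowest. Of 12 tested, 4 were called lower and 0 higher, beside 5.17% and 8.62% of all genes tested. The median log2 fold change of the list was -0.85. *Sugt1* had 22.5, 31.7 and 27.8 CPM against 81.9 and fell by 1.58 on the log2 scale (SE 0.28, edgeR adjusted p = 0.0192). *Chordc1* had 9.0, 13.7 and 15.0 CPM against 38.5 and fell by 1.61 (SE 0.36, edgeR adjusted p = 0.0332). *Ptges3*, which encodes p23, had 260, 241 and 235 CPM against 459 and fell by 0.90 (SE 0.21, edgeR adjusted p = 0.0361). These 3 genes encode CS-domain proteins, as NudC does. Of 12 alternative settings, the call was lost in 1 for *Sugt1*, 3 for *Chordc1* and 1 for *Ptges3*. *Ahsa1*, an activator of the Hsp90 ATPase, had 132, 142 and 118 CPM against 239 and fell by 0.87 (SE 0.23, edgeR adjusted p = 0.0494), a call lost in 7 of 12 alternative settings. The 5 CS-domain genes of the list (also *Itgb1bp2* and *Cacybp*, grouped after their values were seen) had log2 fold changes of -2.01 to -0.86, the lowest being *Itgb1bp2* with 3, 7 and 2 counts against 14 (SE 1.07). Those of the NudC genes were 0.70 for *Nudc*, -0.25 for *Nudcd1*, -0.16 for *Nudcd2* and 5.07 for *Nudcd3*. *Hsp90ab1*, the constitutive Hsp90, had 8279, 9870 and 10100 CPM against 10890, with a log2 fold change of -0.21 (SE 0.19, edgeR adjusted p = 0.457).

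**Figure D5:**
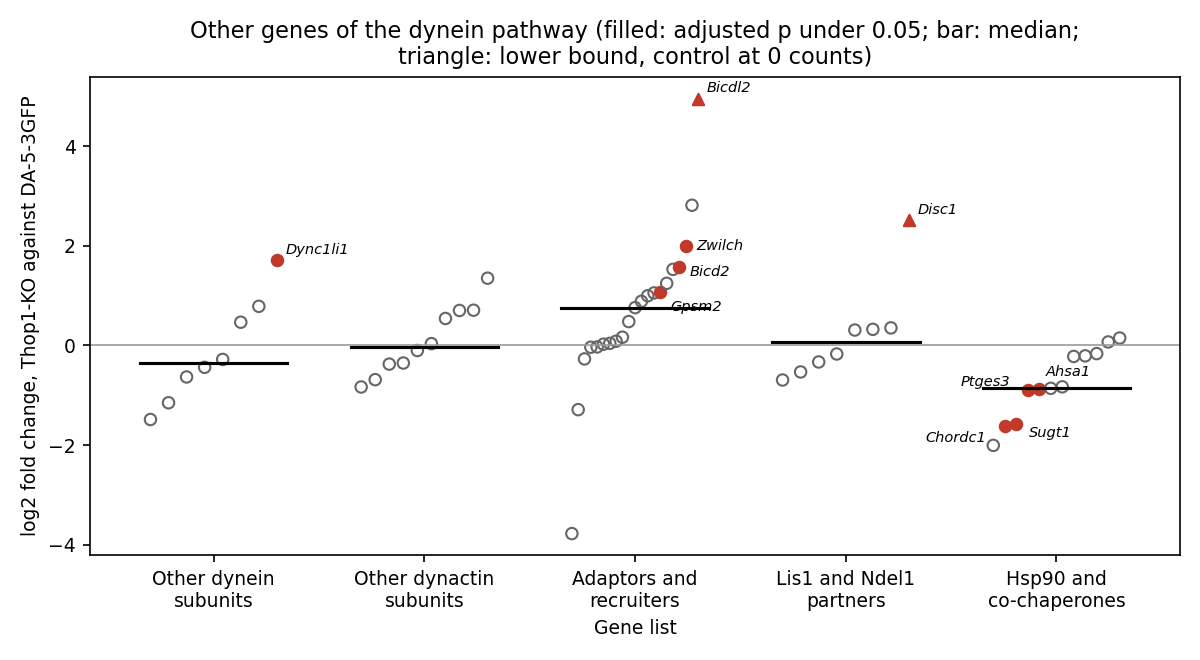
log2 fold change of *Thop1*-KO against DA-5-3GFP (y axis) for each tested gene of the 5 lists of the dynein pathway and of Hsp90 with its co-chaperones (x axis), filled where called at an adjusted p under 0.05, with a bar at the median of each list and triangles at the lower bound for genes at 0 counts in the control. The adaptors have a median of 0.76 with 4 genes called higher, and the Hsp90 list has a median of -0.85 with 4 genes called lower.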

How the data were processed

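RNA-seq of 1 DA-5-3GFP and 3 *Thop1*-KO libraries was analysed. The members and the gene lists were chosen with earlier results of these data known. The authors trimmed reads with the FASTX toolkit, and the submitters' processing notes name HISAT2 2.0.5 and featureCounts 1.5.0-p3. The genome build, the strand setting and the annotation release are not given in the sources used here. The deposited table holds raw counts per gene, FPKM values made by the authors, and exon lengths and positions. Subclone replicates are libraries of separate clones, so p-values measure only the spread between these clones.

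Low genes were removed with filterByExpr (minimum count 10), and counts were TMM-normalized and tested with edgeR 4.0.16 (quasi-likelihood, R 4.3.3) with Benjamini-Hochberg adjustment, 0.05 being the threshold. An exact permutation test of 1 control against 3 subclones cannot go below 0.25. SEs are the log2 fold change divided by the square root of F. Alternatives were other scalings, other filters, DESeq2 1.42.0, limma 3.58.1 on the deposited FPKM in log2 form with a pseudocount of 1 or 0.1, a loess length correction (span 0.3) and leaving out each subclone. The scripts were tested on simulated data. The genes named are the 10 members, *Thop1*, the called genes of each list (or the 2 with the largest change), the nearest tested neighbours of *Nudcd3* and the 5 genes with the profile closest to it, of which 1 is not reported here. Protein identity between members was not run.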

Additional observations from a re-analysis of the deposited data

How the results depend on the processing

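All 10 genes were recomputed in 12 alternative settings. Of the 120 fold changes, 109 moved by less than the SD of the subclones and 11 by more. *Dctn2*, not called in any setting, took the opposite sign with the length correction. The log2 fold change ranged from 4.49 to 5.50 for *Nudcd3* and from 2.94 to 3.62 for *Dync1h1*. Beside these genes DESeq2 called *Ndel1*, the length correction called *Pafah1b1* (1 lower) and leaving out #2 called *Pafah1b1*, *Ndel1* and *Dctn1*. Nothing is read from calls on genes chosen from this contrast.

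Leaving out 1 subclone gave 354 to 3096 genes called higher and 103 to 2476 lower over all genes, the lowest without #3 and the highest without #2. It gave 2 to 4 of the 10 genes higher and 0 to 1 lower, 0 to 16 list genes higher and 0 to 12 lower, and 0 to 4 neighbours higher and 0 to 3 lower. DESeq2 called 1987 genes higher, and of the lists 10 higher and 7 lower, and 3 neighbours higher. Of the lists, limma on log2(FPKM + 1) called 3 higher and 2 lower, limma on log2(FPKM + 0.1) 2 lower, the length correction 3 higher, and a fold rule of 2, added after seeing the data, 2 lower. Upper quartile scaling called 2 neighbours lower. The calls of #1 against the others were 11 with DESeq2's size factors, 12 with upper quartile scaling, 26 with library size only and 0 without a filter. Those of #2 were 832 with DESeq2's size factors, 196 with library size only, 1173 without a filter, 37 with at least 10 counts in every library and 586 with the length correction, and 0 of the 10 genes were called with library size only or at least 10 counts in every library. Those of #3 were 15 with upper quartile scaling, 20 with library size only, 7 without a filter and 2 with the length correction. The cause was not tested. No paired analysis was possible because the control has 1 library.

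The depth limits *Nudcd3* in the control, at 16 counts, and the single control library limits every difference between the genotypes.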
